A study of Mus musculus with 6 samples.

Results

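The Msx and Dlx homeobox genes were examined through the ATAC-seq peaks around them in mouse distal forelimb buds, with and without HOX13 function. The 8 member genes were Msx1, Msx2 and Dlx1 to Dlx6. A peak was taken as a member when its midpoint lay within 200 kb of a transcription start site of one of these genes in the GENCODE M21 annotation of mm10, and it was given to the gene with the nearest start. This gave 126 of the 61954 peaks of the deposited table. Of these, 32 belonged to Msx1, 26 to Msx2, 6 to Dlx1, 14 to Dlx2, 24 to Dlx3, 10 to Dlx4, 7 to Dlx5 and 7 to Dlx6. The nearest member is not necessarily the gene on which a peak acts, and several windows hold other genes. The 3 outermost member peaks, 197 kb from Msx2, 191 kb from Dlx4 and 191 kb from Msx2, differed between genotypes by 0.29, −0.20 and 0.28 on the log2 scale. The first 3 peaks outside the limit, 203 kb from Msx1, 203 kb from Dlx3 and 206 kb from Msx2, differed by −0.20, 0.13 and −0.60.

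In ATAC-seq, the transposase Tn5 cuts and tags DNA where chromatin is open. The libraries came from distal forelimb buds of E11.5 embryos of mixed background (C57Bl/6 x 129), each made from 50000 cells of 1 embryo. There were 2 wild-type (WT) libraries and 2 HOX13-/- libraries, the latter from embryos homozygous for null alleles of Hoxa13 (Str) and Hoxd13 (lacZ). A further 2 libraries of proximal forelimb buds were not analysed here. Signal per peak and library is given as a regularized log value (rLog), which is on a log2 scale, scaled for library size and shrunk towards the mean of the peak. Read depth behind a single peak is not held in these values, so no counting interval is given. Differences are HOX13-/- minus wild type from limma over all 61954 peaks, and a peak was called lower or higher at a Benjamini-Hochberg adjusted p under 0.05. No exact permutation of 2 against 2 libraries can give a two-sided p under 0.333, so the calls rest on the spread that limma shares between peaks. In a bulk library, fewer open cells and less opening per cell cannot be told apart.

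Msx and Dlx proteins are homeodomain transcription factors related to the msh and Distal-less genes of insects. Msx1 and Msx2 are transcribed in response to BMP signalling in limb mesenchyme and in the apical ectodermal ridge, the epithelium that sustains limb outgrowth. The Dlx genes lie in facing pairs, Dlx1 with Dlx2, Dlx3 with Dlx4 and Dlx5 with Dlx6, and share enhancers within and around each pair. Dlx5 and Dlx6 are active in the ridge, and their loss is linked to split hand/foot malformation. HOXA13 and HOXD13 are the homeodomain factors of the digit-forming distal limb.

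For the labelled tissue, all 6 limb mesenchyme genes checked (Prrx1, Prrx2, Twist1, Tbx5, Hoxa13 and Hoxd13) had a peak within 1 kb of a start, with rLog from 3.50 to 7.10. Of these, Twist1 and Hoxd13 were called lower. The hindlimb gene Pitx1 had none, whereas Tbx4 had one, which was called lower (−0.71) with rLog from 3.53 to 4.35. Among 8 genes of surface ectoderm and ridge, Epcam, Sp8, Wnt7a and Cdh1 had a weak start peak of 2.63 to 3.71, and Krt5, Krt14, Trp63 and Fgf8 had none. Of 15 marker genes of endothelium, blood, muscle precursors and neural cells, 4 had a start peak. None of these last 8 peaks was called between genotypes. The start peaks of Hoxa13 and Hoxd13 differed by −0.08 and −0.52, which describes accessibility over the genes and does not check the null alleles. In the calls per library that were merged into the table, wild-type replicate 2 had the fewest of the 61954 peaks (27241) and HOX13-/- replicate 2 the most (45587).

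The 4 stretches below are the 300 bases around the midpoints of the member peaks that fell most and rose most, 2 in each direction. They are read on the plus strand of GRCm38 (mm10) and are shown because the results turn on them. Capitals mark matches, on either strand, to CAATAAA or TCGTAAA (HOX13-type), to TAATTG (a homeodomain site of the Msx and Dlx type) or to TGACAG (Meis-type). The first pair was lower and the second pair was higher in HOX13-/-.
Msx1 upstream 178.2 kb, chr5:38002670-38002969: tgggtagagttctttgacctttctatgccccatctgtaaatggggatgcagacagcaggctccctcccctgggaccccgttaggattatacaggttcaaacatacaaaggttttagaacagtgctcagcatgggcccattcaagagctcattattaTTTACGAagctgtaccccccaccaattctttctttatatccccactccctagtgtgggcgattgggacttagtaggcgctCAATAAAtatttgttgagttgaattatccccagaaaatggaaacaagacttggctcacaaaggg
Dlx5 upstream 32.3 kb, chr6:6914239-6914538: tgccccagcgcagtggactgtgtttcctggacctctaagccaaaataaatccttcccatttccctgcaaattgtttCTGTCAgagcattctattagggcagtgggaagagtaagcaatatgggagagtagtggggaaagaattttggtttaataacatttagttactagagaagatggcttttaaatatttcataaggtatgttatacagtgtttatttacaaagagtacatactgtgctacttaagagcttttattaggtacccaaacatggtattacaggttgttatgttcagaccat
Msx2 upstream 57.9 kb, chr13:53530867-53531166: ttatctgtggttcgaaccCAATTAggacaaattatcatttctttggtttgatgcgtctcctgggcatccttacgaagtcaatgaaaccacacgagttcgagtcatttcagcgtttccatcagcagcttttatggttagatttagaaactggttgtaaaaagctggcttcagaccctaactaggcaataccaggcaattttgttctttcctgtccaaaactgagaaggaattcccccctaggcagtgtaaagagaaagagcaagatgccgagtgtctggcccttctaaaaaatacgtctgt
Msx1 downstream 99.2 kb, chr5:37725263-37725562: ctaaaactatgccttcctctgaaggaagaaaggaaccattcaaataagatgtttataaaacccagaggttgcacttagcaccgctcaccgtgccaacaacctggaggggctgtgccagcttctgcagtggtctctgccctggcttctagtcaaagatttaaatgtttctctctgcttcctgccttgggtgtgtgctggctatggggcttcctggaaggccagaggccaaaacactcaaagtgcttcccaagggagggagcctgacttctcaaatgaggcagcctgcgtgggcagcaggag

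The Msx1 stretch at 178.2 kb holds 2 HOX13-type matches, TTTACGA from position 157 and CAATAAA from position 237. The Dlx5 stretch holds 1 Meis-type match, CTGTCA from position 77. The Msx2 stretch holds 1 match of the Msx and Dlx type, CAATTA from position 19, and the last stretch holds none of the searched words. A match describes letters in the window and is not a bound site.

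At the genes' own starts, the peak of Dlx3 was the 1 called between genotypes. Of 10 member peaks within 1 kb of a member start, 1 was called lower and none higher, and at an unadjusted p under 0.05 the counts were the same (limma). Over all peaks, 8.31% were called lower and 11.4% higher. In 5 of the 10 both HOX13-/- libraries lay below both wild-type libraries and in 1 above, which held for 29.6% and 29.7% of all peaks. Dlx4 had no peak within 1 kb of its starts.

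Msx1 (chromosome 5, 37820485 to 37824583, minus strand) had its start peak from 37824238 to 37824910, in an untranslated part of the gene, with rLog of 6.61 and 6.68 in wild type against 6.54 and 6.90 in HOX13-/-. At Msx2 (chromosome 13, 53466884 to 53473074, minus strand), the start peak from 53472650 to 53473032 had 6.64 and 6.73 in wild type against 6.62 and 6.55 in HOX13-/-. The genotypes overlapped at Msx1, and at Msx2 the HOX13-/- libraries lay just below the wild-type ones. Neither difference, 0.07 (standard error 0.127) and −0.10 (standard error 0.128), was called (adjusted p = 0.72 and 0.62).

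The start peak of Dlx5 (chromosome 6, 6877805 to 6882085, minus strand), from 6881944 to 6882219, had 5.66 and 5.54 in wild type against 5.48 and 5.47 in HOX13-/-. At Dlx6 (chromosome 6, 6863334 to 6868568, plus strand), the peak from 6863512 to 6863869 in a coding exon had 5.92 and 5.40 in wild type against 5.62 and 5.47. The HOX13-/- libraries lay just below the wild-type ones at Dlx5 and between them at Dlx6. Neither peak was called (adjusted p = 0.53 and 0.56).

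Dlx1 and Dlx2 are best known from forebrain interneurons. Dlx1 (chromosome 2, 71528113 to 71533981, plus strand) had 2 peaks within 1 kb of a start. The one nearest to a start, from 71529955 to 71530066, had 3.62 and 3.47 in wild type against 3.79 and 3.62 in HOX13-/-. The other, from 71529548 to 71529825, was stronger, with 5.55 and 5.50 against 5.44 and 5.36, and was not called either (−0.13, adjusted p = 0.52). At Dlx2 (chromosome 2, 71543408 to 71546754, minus strand), the peak from 71546707 to 71546925 had 4.53 and 4.51 against 4.55 and 4.53. The 4 Dlx2 values lay within 0.05 of each other, the narrowest of the start peaks given here.

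Dlx3 was the member gene whose own start was called. Its protein acts in surface epithelia and in bone. Over the start of Dlx3 (chromosome 11, 95120119 to 95125296, plus strand), the peak from 95119959 to 95120151 had 4.61 and 4.83 in wild type against 4.32 and 4.28 in HOX13-/-. The genotypes did not overlap, and the peak had been called in the wild-type libraries only. The difference was −0.42 (standard error 0.130, adjusted p = 0.010). Without wild-type replicate 2 it was −0.31 (adjusted p = 0.20), without HOX13-/- replicate 2 it was −0.40 (adjusted p = 0.081), and with a correction for GC content it was −0.34 (adjusted p = 0.052). At the 4 surface ectoderm and ridge genes with a start peak, the rLog values summed to 13.4 and 12.7 in wild type against 12.7 and 12.6 in HOX13-/-. Their part in the Dlx3 result was not tested.

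**Figure D1:**
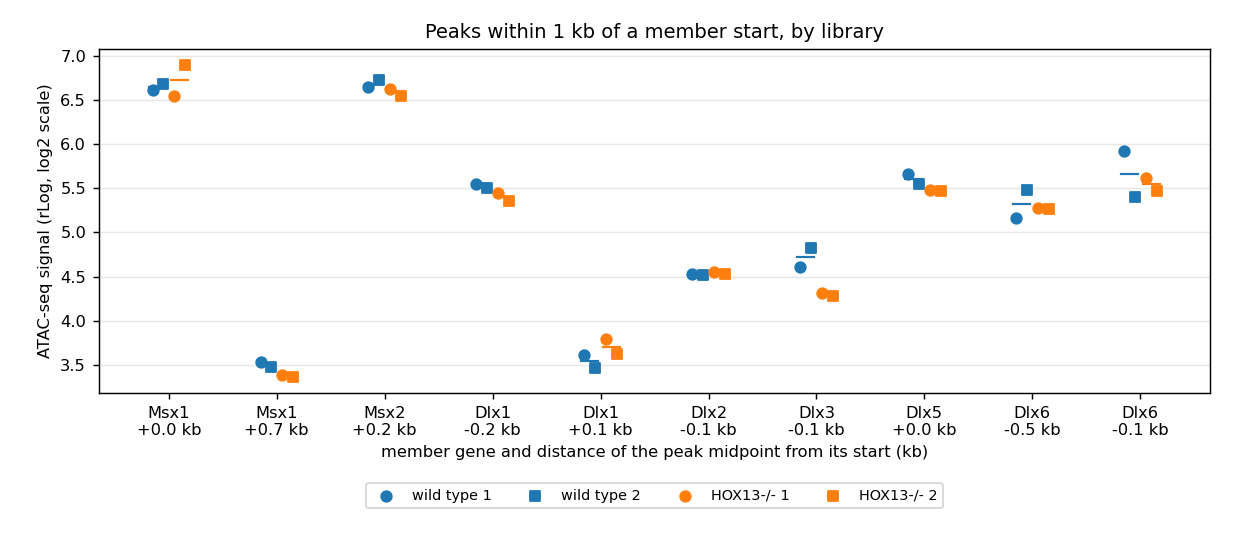
ATAC-seq signal (rLog, log2 scale) at the 10 peaks within 1 kb of a member start, with 1 point per library and a bar at each genotype's mean (n = 2). The x axis gives the gene and the distance of the peak's midpoint from its start in kb. At Dlx3 both HOX13-/- libraries sit below both wild-type libraries, and no other start peak was called.

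Set per length, as mean rLog minus the log2 of the peak's length in kb, the peaks nearest to each start ran from 8.02 at Msx2 through 7.39 at Dlx5, 7.26 at Msx1, 7.09 at Dlx6, 6.88 at Dlx3 and 6.78 at Dlx1 to 6.72 at Dlx2. Msx2 stood apart, since its lowest library (7.93) was above the highest library at Dlx5 (7.51). From Dlx5 down, each gene overlapped the next in this order. The place of Dlx1 depends on which peak is taken, since its stronger start peak had 7.31. The second start peaks of Dlx6 and Msx1 had 7.14 and 6.39. Shrinkage of rLog draws the libraries of weak peaks together, so these are approximate levels.

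Across all 126 member peaks, 14 were called lower and 15 higher in HOX13-/-, which are 11.1% and 11.9% against 8.31% and 11.4% of all peaks. The member peaks as a whole were near the background, with a median difference of −0.01 and the same over all peaks (−0.01). The changes were divided unevenly. The 58 Msx peaks held 7 lower (12.1%) and 13 higher (22.4%) peaks, and the 68 Dlx peaks held 7 lower (10.3%) and 2 higher (2.94%) peaks. The 11 higher members that had been called in HOX13-/- libraries only were all Msx peaks. This division is thus not independent of how peaks entered the table, and it was not tested. Without overlap between the genotypes, 40 member peaks (31.7%) lay lower and 33 (26.2%) higher in HOX13-/-, against 29.6% and 29.7% of all peaks. With wild-type replicate 1 left out the member counts were 8 lower and 11 higher, with HOX13-/- replicate 1 left out they were 9 and 9, and with HOX13-/- replicate 2 left out 8 and 14. Of the 29 called peaks, 13 were called in the same direction in each of 12 alternative fits.

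Past a fold change of 2 on the rLog scale there was 1 member peak, higher in HOX13-/-, and none lower, where 0.313% and 0.224% of all peaks passed. At more than 1.5-fold there were 5 lower and 5 higher (3.97% each), against 1.56% and 3.33% of all peaks. All of these 10 lay away from the start of any coding gene, as did 26 of the 29 called peaks. The 24 member peaks within 1 kb of the start of another coding gene held 2 lower (8.33%) and no higher peaks, against 8.31% and 11.4% of all peaks. Of these 24, 21 had a negative difference.

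**Figure D2:**
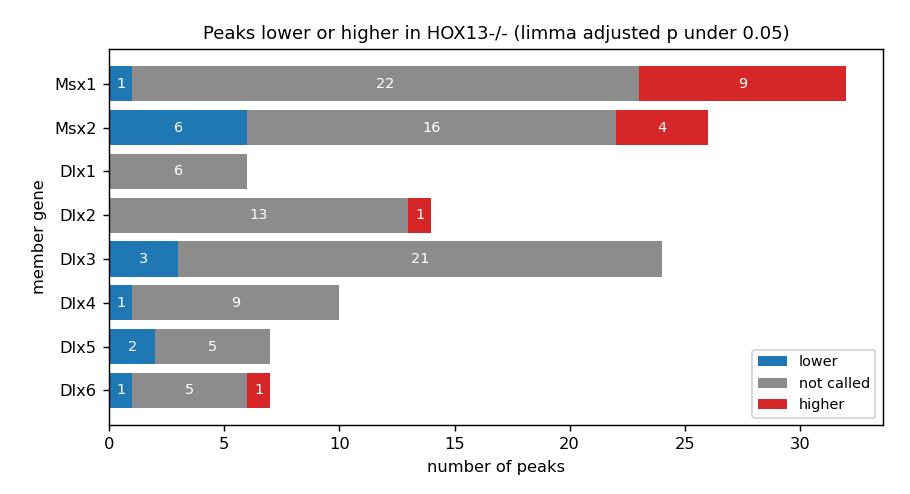
Number of member peaks of each gene that were lower, higher or not called in HOX13-/- (limma adjusted p under 0.05). Msx1 shows 9 higher and 1 lower of 32 peaks, Msx2 4 higher and 6 lower of 26, and Dlx1 none of 6.

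Around Msx1, which encodes a homeodomain repressor of differentiation, more peaks were higher than lower in HOX13-/-. Of its 32 peaks, 9 were higher (28.1%) and 1 was lower (3.12%), and 24 had a positive difference. The median difference was 0.15, and the mean over the 32 peaks was 4.76 and 4.75 in wild type against 4.92 and 4.91 in HOX13-/-. On that mean both HOX13-/- libraries lay above both wild-type libraries. Over all peaks, 11.4% were higher, 8.31% were lower and 30482 of 61954 had a positive difference. A peak entered the table by a call in any library, and the 32 include peaks called in HOX13-/- libraries only. Such peaks were 41 of the 126 members (32.5%) and 32.2% of all peaks, which are not the shares at Msx1 alone. Every such Msx1 peak had a positive difference. Among the 9 higher Msx1 peaks, those 1.40 kb upstream and 43.4 kb downstream had also been called in a wild-type library. The others had been called in HOX13-/- libraries only. The lean at Msx1 is thus not independent of how peaks entered, and it was not tested without such peaks. Higher peaks lay on both sides of the gene, 5 of 19 upstream and 4 of 13 downstream. The count depended on single libraries and on GC content, with 5 higher peaks without HOX13-/- replicate 1 and 5 higher and 2 lower with the GC correction.

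The strongest rise at Msx1 was 99.2 kb downstream, on chromosome 5 from 37724952 to 37725873, in intergenic sequence 8.24 kb from the start of Stk32b, a kinase gene. Its rLog was 6.19 and 6.41 in wild type against 7.17 and 6.90 in HOX13-/-. Both HOX13-/- libraries were well above the wild-type libraries, and the peak had been called in the HOX13-/- libraries only. The difference was 0.74 (standard error 0.127, adjusted p = 3.8e-07).

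A further 3 Msx1 peaks were higher in every alternative fit, and they are described because of that, after their values were seen. The peak 150.2 kb upstream, from 37974583 to 37975076, had 4.899 and 4.910 in wild type against 5.68 and 5.38 in HOX13-/-. The peak 55.4 kb downstream, from 37768983 to 37769309, had 4.99 and 5.03 against 5.55 and 5.62, and it holds 2 matches to TAATTG. The peak 35.8 kb upstream, from 37860211 to 37860629, had 4.75 and 4.72 against 5.21 and 5.23. At each of them the genotypes did not overlap, with differences of 0.63, 0.58 and 0.49 (standard errors 0.131). All 3 had been called in the HOX13-/- libraries only.

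Nearest to the gene, the peak 1.40 kb upstream of Msx1, from 37825784 to 37826181, had 5.40 and 5.49 in wild type against 6.09 and 5.62 in HOX13-/-. The rise of 0.41 (standard error 0.130, adjusted p = 0.013) lay mostly in HOX13-/- replicate 1, and it was not called without that library or without wild-type replicate 1. The remaining 4 higher peaks, 144 and 116 kb upstream and 43.4 and 142 kb downstream, rose by 0.38 to 0.43, and none was called under the GC correction. The 22 peaks that were not called differed by −0.20 to 0.34. They included the strongest Msx1 peak, 93.6 kb upstream from 37917863 to 37918451, with 6.81 and 6.84 in wild type against 7.01 and 6.67 in HOX13-/-.

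The lone loss at Msx1 was the largest fall of all members. It lay 178.2 kb upstream, from 38002648 to 38002990, in intergenic sequence 35.9 kb from the start of Stx18, a gene for a membrane fusion protein. Its rLog was 5.29 and 5.23 in wild type against 4.34 and 4.46 in HOX13-/-, so the genotypes were far apart beside a replicate SD of 0.044 and 0.086. The difference was −0.86 (standard error 0.131, adjusted p = 4.5e-09), and over the alternative fits it ranged from −0.96 to −0.80. The peak had been called in the wild-type libraries only. This is the first stretch printed above, with its 2 HOX13-type matches.

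**Figure D3:**
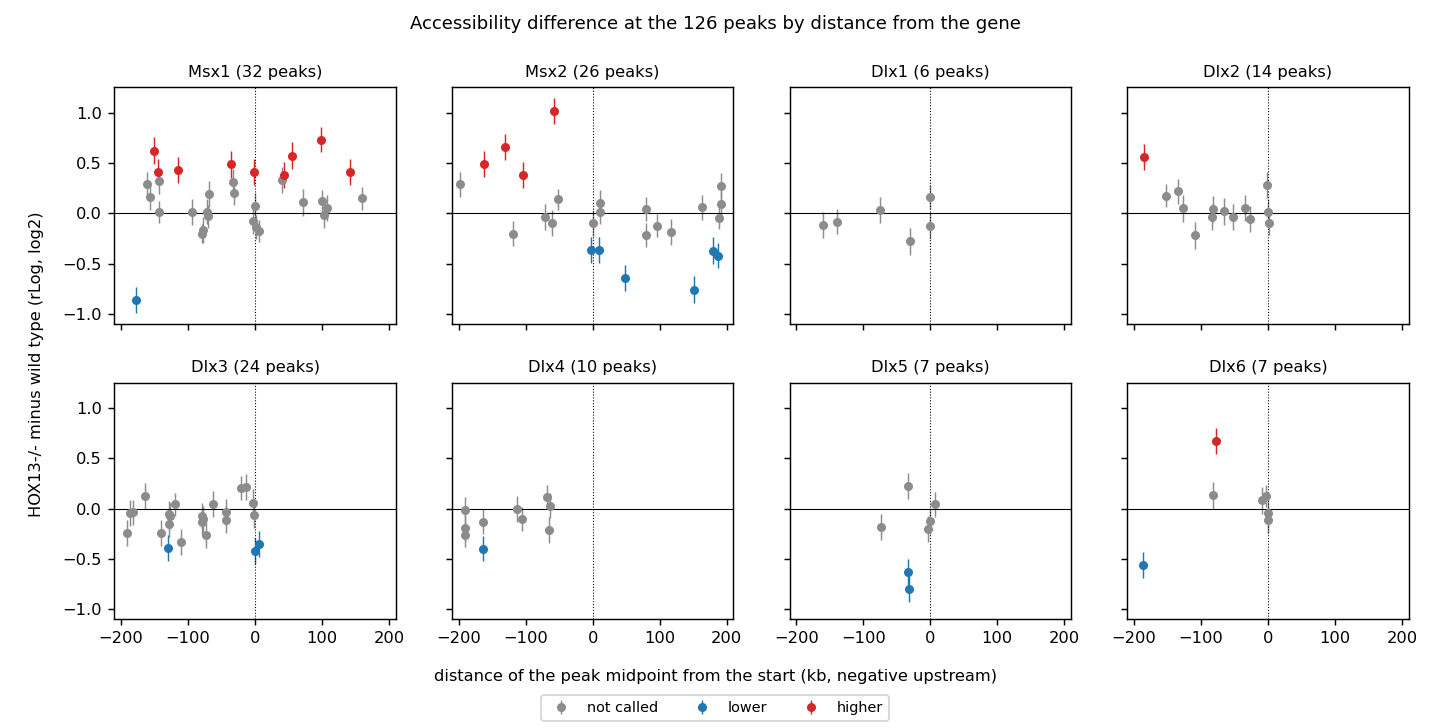
Difference HOX13-/- minus wild type (rLog, log2, with the standard error from limma as bars) at the 126 member peaks by distance of the midpoint from the gene's start in kb, negative upstream. Blue points were called lower and red points higher. Msx1 is mostly above 0 with 1 low point 178.2 kb upstream, and Msx2 has its 4 red points upstream and 5 of its 6 blue points downstream.

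Msx2, the paralogue that restrains growth and takes part in interdigital cell death, showed changes in both directions. Of its 26 peaks, 4 were higher (15.4%) and 6 lower (23.1%), the median difference was −0.04, and the mean over the peaks was 4.79 and 4.79 in wild type against 4.78 and 4.77 in HOX13-/-. All 4 higher peaks were among the 10 upstream peaks, and 5 of the 6 lower peaks were among the 16 downstream peaks. All 4 higher peaks had been called in HOX13-/- libraries only, and the lower peaks 9.29, 48.1 and 151.9 kb downstream in wild-type libraries only. The arrangement by side was noticed in the data and was not tested. Lower peaks numbered 2 without wild-type replicate 1, 3 without either HOX13-/- library and 3 with the GC correction, and higher peaks 2 without HOX13-/- replicate 1.

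The largest rise of all members lay 57.9 kb upstream of Msx2, on chromosome 13 from 53530744 to 53531288, in an intron of Gm34022, an uncharacterized gene. Its rLog was 5.30 and 5.41 in wild type against 6.30 and 6.45 in HOX13-/-. The libraries of the genotypes were far apart, and the peak had been called in the HOX13-/- libraries only. The difference was 1.02 (standard error 0.130, adjusted p = 7.6e-13). It was called in every alternative fit with values from 0.92 to 1.10, below 2-fold in some of them. Among its neighbours, the peaks 60.8 kb and 52.0 kb upstream were not called, at −0.10 and 0.14.

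A second upstream peak, 130.6 kb from the start and from 53603405 to 53604011, rose from 5.63 and 5.63 in wild type to 6.31 and 6.27 in HOX13-/-. This difference of 0.66 (standard error 0.129, adjusted p = 8.7e-06) was also called in every alternative fit. The other higher peaks, 162 and 103 kb upstream, rose by 0.49 and 0.38.

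Downstream, the strongest loss was 151.9 kb from the start of Msx2, from 53320928 to 53321354, intergenic and 35.0 kb from the start of Ror2, a receptor for Wnt5a. Its rLog was 5.52 and 5.51 in wild type against 4.55 and 4.96 in HOX13-/-. The HOX13-/- libraries differed from each other by more than the wild-type ones, and both were lower. The difference was −0.76 (standard error 0.131, adjusted p = 3.3e-07). The peak 48.1 kb downstream, from 53424789 to 53425059 in an intron of Gm2762, fell from 5.04 and 5.23 to 4.53 and 4.46, a difference of −0.64 (standard error 0.131), and holds 1 HOX13-type match. Both losses were called in every alternative fit, and both peaks had been called in the wild-type libraries only.

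Of the other 4 lower Msx2 peaks, the one over an untranslated part of Ror2, 187 kb downstream, fell by 0.42 on the log2 scale, and those 3.0 kb upstream and 9.29 and 180 kb downstream fell by 0.36 to 0.37. Each lost its call in at least 3 alternative fits. At the strongest Msx2 peak, 163 kb downstream from 53309133 to 53310185, rLog was 7.72 and 7.59 in wild type against 7.89 and 7.55 in HOX13-/-, which overlap.

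Near Dlx5 the loss was concentrated at 1 place. Of its 7 peaks, 2 were lower and none higher, and they lay side by side 32.3 and 32.6 kb upstream with 10 bases between them. They may be parts of 1 open region and are not independent. The first, on chromosome 6 from 6914248 to 6914529, had 4.65 and 4.57 in wild type against 3.85 and 3.76 in HOX13-/-. The second, from 6914540 to 6914761, had 4.36 and 4.39 against 3.81 and 3.67. At both the genotypes were clearly apart, and neither peak had been called in a HOX13-/- library.

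The differences were −0.80 (standard error 0.129, adjusted p = 2.8e-08) and −0.63 (standard error 0.128, adjusted p = 1.9e-05), and both were called in every alternative fit. The next peak, 536 bases further on and from 6915298 to 6915668, had 5.22 and 5.19 in wild type against 5.38 and 5.49 in HOX13-/-. Its difference of 0.23 (adjusted p = 0.21) was not called, so the loss did not extend to it. With 36.2% and 36.5% GC, the lower peaks were poorer in GC than the median of all peaks (52.1%), and the GC correction left them at −0.73 and −0.56. The strongest peak given to Dlx5, 74.0 kb upstream over the start of Sdhaf3, a gene for an assembly factor of succinate dehydrogenase, differed by −0.18 (adjusted p = 0.31).

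The 7 peaks of Dlx6 held 1 loss and 1 gain, both upstream. The gain, 77.2 kb from the start and from 6785914 to 6786411 in intergenic sequence, had 5.51 and 5.28 in wild type against 6.04 and 6.10 in HOX13-/-. The genotypes did not overlap, and the difference of 0.68 (standard error 0.130, adjusted p = 6.2e-06) was called in every alternative fit. The loss, 186 kb from the start and from 6676783 to 6677103 in an intron of Gm20618, had 4.54 and 4.08 against 3.60 and 3.90. Its replicates were far apart in both genotypes. The difference was −0.56 (standard error 0.127, adjusted p = 1.9e-04), and it fell to −0.33 (adjusted p = 0.16) without wild-type replicate 1 and to −0.41 (adjusted p = 0.061) without HOX13-/- replicate 1. The peaks within 10 kb of Dlx6, including those in its antisense transcript Dlx6os1, differed by −0.12 to 0.13.

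In the Dlx3 and Dlx4 pair, the 4 called peaks were all lower in HOX13-/-. Of 34 peaks, 26 had a negative difference, 4 were called lower (11.8%) and none higher, with 0 higher peaks also at an unadjusted p under 0.05. The median difference was −0.09. Over all peaks, 31472 of 61954 had a negative difference, 8.31% were lower and 11.4% were higher. Many of the 34 lay within 1 kb of starts of other genes, such as Ppp1r9b, Itga3 and Kat7. All of these except the peak 63.1 kb upstream of Dlx3 had a negative difference. They make up most of the 24 such peaks of all members, of which 21 had a negative difference. The pair's lean was not tested apart from them. Besides the Dlx3 start, the peak 6.59 kb downstream of it fell by 0.35 and the one 130 kb upstream fell by 0.39. Both lost their call in at least 3 alternative fits. Without wild-type replicate 2 no Dlx3 peak was called lower, and without HOX13-/- replicate 2 and with the GC correction there was 1.

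The lower peak of Dlx4 (chromosome 11, 95140447 to 95146263, minus strand) lay 164 kb upstream, from 95310088 to 95310692, and 0.14 kb from a start of Kat7, a histone acetyltransferase gene. It is the strongest of all member peaks, with 8.18 and 8.11 in wild type against 7.75 and 7.75 in HOX13-/-. The difference was −0.40 (standard error 0.123, adjusted p = 0.010), and it was not called without wild-type replicate 1 or without either HOX13-/- library (adjusted p = 0.072 to 0.081). The strongest peak given to Dlx3, over a start of the kinase gene Pdk2, had 7.88 and 7.79 against 7.79 and 7.60 and was not called.

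Dlx1 and Dlx2 showed the fewest changes. None of the 6 Dlx1 peaks was called, with differences of −0.28 to 0.16 and 1 lower peak at an unadjusted p under 0.05. Its strongest peak, at the start of the histone acetyltransferase gene Hat1, had 7.33 and 7.41 in wild type against 7.29 and 7.29 in HOX13-/-. Of the 14 Dlx2 peaks, 1 was higher, 185 kb upstream on chromosome 2 from 71731887 to 71732360 and 13.5 kb from the start of the integrin gene Itga6. It had 5.51 and 5.79 in wild type against 6.13 and 6.29 in HOX13-/-, a difference of 0.56 (standard error 0.129, adjusted p = 2.7e-04), and was called in every alternative fit. The strongest Dlx2 peak, 1.48 kb upstream from 71547980 to 71548492, had 5.84 and 5.83 against 6.03 and 6.21. There the genotypes did not overlap, but the difference of 0.29 was not called (adjusted p = 0.10).

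**Figure D4:**
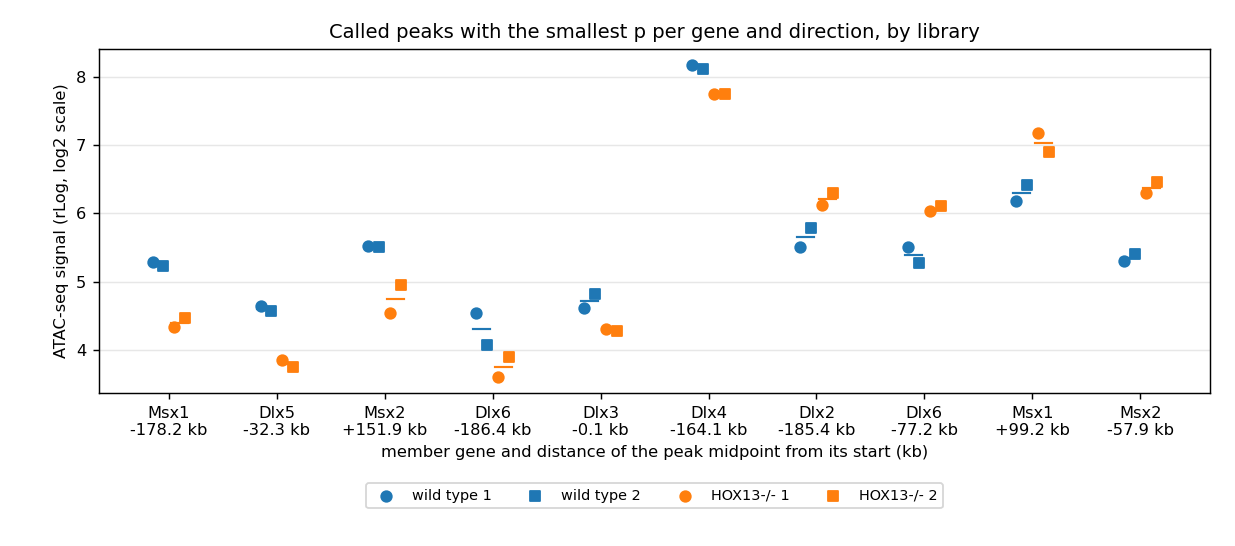
ATAC-seq signal (rLog, log2 scale) of the 4 libraries at the 10 called peaks with the smallest p per gene and direction, ordered by the difference, with a bar at each genotype's mean (n = 2). The genotypes do not overlap at any of them, and the replicates are widest apart at the Dlx6 peak 186.4 kb upstream.

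The called members shared some features that were not used to call them but are not independent of the calls. With the GC correction, higher peaks went from 15 to 11 among members and from 7040 to 5346 over all peaks. The higher peaks of the whole table were also stronger than all peaks (median rLog 5.40 against 4.73). Higher members were longer than all peaks (median 398 against 250 bases) and lower in GC (48.3 against 52.1%), and so were the higher peaks of the whole table (395.5 bases and 47.8%). A HOX13-type match stood within the 300 bases around the midpoint in 3 of 14 lower members (21.4%), 3 of 15 higher members (20%) and 8 of 97 others (8.25%). Over all peaks the share was 7.61%, and it was 14.2% in the lower and 9.32% in the higher peaks of the table. TAATTG stood in 5 higher members (33.3%) and 2 lower members (14.3%), against 14.1% of all peaks and 29.1% of all higher peaks. TGACAG stood in 24.6% of members and in 17.8% of all peaks. These are counts of few peaks and carry no test. Of the 15 higher members, 11 had been called in HOX13-/- libraries only, and of the 14 lower members 9 in wild-type libraries only, a description of the same libraries. Over the whole table this held for 4146 of 7040 higher peaks (58.9%) and 2621 of 5146 lower peaks (50.9%).

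Other genes of the same pathways were read by the same distance rule. Around 8 genes of BMP response and feedback, 18 of 206 peaks were lower (8.74%) and 14 higher (6.80%), with a median difference of −0.04. Over all peaks, 8.31% were lower and 11.4% higher. Id3, which encodes an inhibitor of bHLH factors, had 7 lower and no higher of 34 peaks, and its relative Id4 had 4 higher and no lower of 11. Around 7 genes of the ridge and of split hand/foot malformation, 6 of 87 peaks were lower (6.90%) and 7 higher (8.05%). Among them Sp8, a zinc finger factor of the ridge, had 3 higher of 8 peaks, and Trp63, the master regulator of stratified epithelium, had 1 lower of 4. Id3, Id4, Sp8 and Trp63 were picked after their values were seen. Of the other genes, Smad6 had 1 lower and no higher of 29 peaks, and Btrc had none called of 7. In both lists the share of higher peaks was under the 11.4% of the whole table, a difference that was not tested.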

How the data were processed

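ATAC-seq libraries of distal forelimb buds were analysed, 2 wild-type and 2 HOX13-/-. According to the methods and the submitters' processing notes, alignment by the authors was to mm10 (Bowtie2 2.3.1), and they called peaks per library with MACS2 2.1.1.20160309, merged them with HOMER 4.9.1 and ran DESeq2. Handling of duplicates and of the Tn5 offset is not given in the sources used here. The values deposited by the authors are rLog values on a log2 scale. The names of the libraries in which each peak was called (another text column) were read too. The authors' own fold changes, p-values and adjusted p-values in the table were not used.

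The genotype term was tested by limma 3.58.1 (R 4.3.3) over the 61954 peaks, two-sided, with the variance trended on mean signal and Benjamini-Hochberg adjustment. The procedure was tested on simulated data. The values hold no depth, and p-values rest on the spread that limma shares between peaks, with 2 embryos per genotype. Alternatives were 3 scalings, no trend, a filter on low values, a replicate block, correction for GC content, both together, leaving out each library, other windows, start sites and fold thresholds.

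Named peaks were, per gene, the one nearest to a start within 1 kb, the called ones with the smallest p in each direction, those past 2-fold and the one with the highest signal. Other peaks given were chosen after their values were seen. Members and lists were chosen with earlier results of these data known. Sequence came from GRCm38.p6, which is mm10, read with pysam 0.24.0. Genes came from GENCODE M21. Coordinates are as deposited.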

Additional observations from a re-analysis of the deposited data

How the results depend on the processing

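Peaks called lower numbered 14 and peaks called higher 15 among the members. Both counts came to 7 when the midpoint had to lie within 100 kb of a start, where fewer peaks are members. Leaving out 1 library gave 8 to 11 lower and 9 to 15 higher peaks. The replicate block gave 14 lower and 16 higher peaks, and the replicate differences of the genotypes were not correlated (r = −0.01 over all peaks), so the numbers do not pair the libraries. The GC correction gave 10 and 11. Past 2-fold there was 1 higher peak and 0 lower, and with median centring, quantile normalization and the GC correction with or without the replicate block there were 0 higher. Without 1 library there were 0 to 1 higher and 0 lower, and at more than 1.5-fold 5 and 5. Median centring moved the median difference of all 61954 peaks from −0.01 to −0.04 and their calls from 5146 lower and 7040 higher to 6811 and 6017, and the members' calls to 15 and 15.

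Of the 22 named peaks, 10 were called. They were called in the same direction in 111 of 120 alternative fits and had the other sign in none. The 9 lost calls were at the Dlx3 start, the Dlx4 peak near Kat7 and the distant Dlx6 loss, the first with the GC correction, the Dlx4 peak with cyclic loess (−0.28, adjusted p = 0.081) and the others without 1 library. None of the 12 peaks not called was called in any of 143 alternative fits, and 17 of these had the other sign. At the Dlx6 start the value was 0.021 with either GC correction and −0.38 to 0.14 without 1 library, and at the Hat1 peak it was 0.023 with either GC correction. The Msx1 start gave −0.10 to 0.25 without 1 library. The strongest Msx2 peak gave −0.011 with either GC correction and −0.11 to 0.23 without 1 library. The strongest Msx1 peak gave −0.019 with median centring, −0.058 with either GC correction and −0.16 to 0.19 without 1 library. The Dlx2 start gave −0.017, −0.0082 and −0.017 with median centring, quantile and cyclic loess normalization. The cause of these shifts was not tested.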
